A study of Homo sapiens with 4 samples.

Results

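Extracellular lipases cut triglycerides and phospholipids of lipoproteins and membranes outside the cell, and angiopoietin-like (ANGPTL) proteins and endoplasmic reticulum chaperones set how much active enzyme there is. The 9 genes described here are LIPG, LPL, LIPC, LIPH, ANGPTL1, ANGPTL2, ANGPTL4, LMF1 and PNPLA2, of which 6 were measured among 19775 genes in all. Members were chosen by symbol, as every probe set whose platform annotation gives that single symbol. For a gene with several probe sets the gene value is the one selected on its measured signal, the highest when averaged over the 4 arrays, and every probe set is reported. The 6 measured genes had 18 probe sets, and LIPC, ANGPTL1 and ANGPTL2 were not analysed here. The genes were proposed with the falls of LIPG and ANGPTL4 in these arrays already known, so the group differences of those genes describe the choice and support nothing further. The other members and the gene lists below were also chosen with earlier results of these data known. Their p-values are descriptions as well.

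Expression was profiled on 3′ microarrays in CAPAN2, an established cell line of human pancreatic ductal adenocarcinoma. Both groups grew in DMEM with 10% fetal bovine serum, penicillin and streptomycin, and were transduced with lentivirus overnight, with hexadimethrine bromide at 8 µg/ml as an aid to infection. The 2 control arrays came from cells given control lentivirus, and the 2 LLGL1 shRNA arrays from cells whose lentivirus carried shRNAs to LLGL1, which encodes a cell polarity protein. The comparison asks what changes after LLGL1 depletion in 1 cell line, and the labels do not give the number of shRNAs or the time after transduction. Replicates are named biological in the labels without mention of separate transductions, so the p-values reflect array-to-array spread, which may be technical.

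A few facts of the arrays bear on every value below. The targeted gene LLGL1 read 6.83 and 6.86 (log2 signal) on the control arrays and 6.73 and 6.71 on the LLGL1 shRNA arrays in its brightest probe set. That difference of -0.12 did not pass (limma adjusted p = 0.22), and its other probe sets differed by 0.09 and 0.06. The group labels are therefore not borne out by their target, and directions are between arrays as labelled. On the LLGL1 shRNA arrays the 3 probe sets for 18S ribosomal RNA were lower by a mean of 1.97 on the log2 scale (10.90 to 8.92), and the 27 for Bacillus poly-A control transcripts went from a mean of 3.85 to 2.84. The part of these shifts in the results below was not tested. Array medians were 2.95 to 2.98. The ductal epithelial markers KRT19 (11.54 on both control arrays), KRT18, KRT8, EPCAM and CDH1 were all read above 9 on each array, MUC1 between 7.32 and 7.41, and KRT7 lower, at 4.28 and 4.30 on the control arrays and 5.82 or more on the others. KRT19 and CDH1 fell between the groups, and KRT7 rose in its brightest probe set while its 3 others differed by 0.00, 0.06 and 0.10. Markers of other cells are given beside LPL.

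LPL, lipoprotein lipase, hydrolyses the triglycerides of circulating lipoproteins once it is held at the cell surface or the capillary wall. LIPG, endothelial lipase, is a related enzyme that acts mainly on the phospholipids of high-density lipoprotein, and LIPH releases lysophosphatidic acid from phosphatidic acid in the outer membrane. ANGPTL4 is a secreted inhibitor that inactivates lipoprotein lipase and is known to be induced by fasting, by fatty acids through PPAR receptors and by hypoxia. LMF1 is a membrane protein of the endoplasmic reticulum that lets lipoprotein, hepatic and endothelial lipase fold and assemble, and PNPLA2 is the intracellular lipase that starts the breakdown of stored triglyceride.

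Among the 6 measured genes, LPL rose and LIPG, LIPH and ANGPTL4 fell on the LLGL1 shRNA arrays, while LMF1 and PNPLA2 did not pass. Thus 4 of 6 passed in limma (threshold 0.05 on the adjusted p), beside 6.28% of all genes. The 1 that rose stands beside 3.21% of all genes called higher, and the 3 that fell beside 3.07% called lower. Since LIPG and ANGPTL4 were known to have fallen, nothing is read from these counts. The median log2 difference was -0.20 over the 6 genes and 0.01 over all genes, and for the same reason nothing is read from it.

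The promoters of the 3 genes that fell are printed here because these genes moved the same way. The sequences are the 250 bases before the start of transcription in RefSeq on build GRCh38.p14, printed 5′ to 3′ on the strand of the gene, at chr19:8363905-8364154 (plus strand) for ANGPTL4, chr18:49561807-49562056 (plus) for LIPG and chr3:185552589-185552838 (minus) for LIPH. Capitals mark matches, on either strand, to ACGTG (the core of a hypoxia response element), GGGCGG (the GC box), AGGTCA (the nuclear receptor half-site) or TATAAA (known as the TATA box).
ANGPTL4: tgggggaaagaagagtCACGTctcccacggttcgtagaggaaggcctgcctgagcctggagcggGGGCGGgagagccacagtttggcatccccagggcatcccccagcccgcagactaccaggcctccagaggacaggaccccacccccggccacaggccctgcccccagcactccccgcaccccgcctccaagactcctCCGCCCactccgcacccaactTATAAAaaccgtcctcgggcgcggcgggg
LIPG: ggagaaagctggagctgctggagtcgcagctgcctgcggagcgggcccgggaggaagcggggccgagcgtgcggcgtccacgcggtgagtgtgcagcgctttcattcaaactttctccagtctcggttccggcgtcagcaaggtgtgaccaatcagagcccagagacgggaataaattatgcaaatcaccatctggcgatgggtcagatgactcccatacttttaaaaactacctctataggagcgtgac
LIPH: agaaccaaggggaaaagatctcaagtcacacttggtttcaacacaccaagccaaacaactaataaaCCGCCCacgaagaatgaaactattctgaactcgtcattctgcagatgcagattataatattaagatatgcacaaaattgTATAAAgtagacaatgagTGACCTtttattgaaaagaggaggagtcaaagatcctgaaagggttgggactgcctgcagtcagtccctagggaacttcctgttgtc

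ANGPTL4 held 1 ACGTG match, starting 234 bases before the gene's start and lying on the opposite strand, 2 GC boxes and 1 TATA box 29 bases before the start. LIPH held 1 GC box, 1 nuclear receptor half-site and 1 TATA box, the last 105 bases before the start, and LIPG held none of the 4 motifs. No motif was therefore present in all 3 windows. The genes were picked for their fall, and whether they share a regulator was not tested. Motifs of LPL, the member that rose, are not given here. Over the 35116 RefSeq windows of the same length, ACGTG occurred in 18.5%, GGGCGG in 42.6%, AGGTCA in 12.1% and TATAAA in 10.7%. Among the measured genes that did not pass, PNPLA2 held 1 GC box and 1 half-site, and each of the overlapping windows of LMF1 held 4 GC boxes. No matches overlapped, and ACGTG is also contained in the E-box CACGTG. The LIPG window starts inside the gene's annotated span, which begins at 49561479, so it belongs to a start downstream of the first one annotated. Both LMF1 windows likewise lie inside that gene's span, 853634 to 981613 on chromosome 16.

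LPL showed the largest difference among the 6 genes. Its brightest probe set (203549_s_at) read 4.27 and 3.66 on the control arrays and 6.52 and 6.39 on the LLGL1 shRNA arrays. Both LLGL1 shRNA arrays lay above both control arrays, and the control pair was the wider apart, by 0.61 against 0.12. The log2 difference was 2.49 (SE 0.226, 95% interval 1.85 to 3.12, limma adjusted p = 0.0318), a 5.6-fold rise from 3.97 ± 0.43 to 6.46 ± 0.0872 (SD, n = 2 each). Of all 19775 genes, 16 were higher by more.

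The other LPL probe set (203548_s_at) gave much the same difference with a narrower spread. It read 2.13 and 2.11 on the control arrays, below the array medians, and 4.48 and 4.44 on the LLGL1 shRNA arrays. Its log2 difference was 2.34 (SE 0.0546), or 5.05-fold, and it passed in a separate fit over all 41091 probe sets with 1 symbol (limma adjusted p = 0.0216). In that fit the brightest LPL probe set missed the threshold (adjusted p = 0.0513). A fold from levels this low depends on the authors' background correction, whose settings were not given in the sources used here.

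LPL is made in quantity by adipocytes and macrophages, so markers of other cell types were read beside it. The 3 adipocyte markers (ADIPOQ, LEP and CFD) had a mean log2 signal of 2.62 and 2.64 on the control arrays and 2.70 and 2.65 on the LLGL1 shRNA arrays. ADIPOQ stayed between 0.89 and 1.14, while CFD read 5.08 to 5.17, above the array medians, without differing between groups (0.02). The 3 measured leukocyte markers (PTPRC, CD3E and MS4A1) had means of 1.81, 1.73, 1.71 and 1.90 in the same order, and CD68 was not analysed here. Fibroblast, endothelial and hepatocyte lists had means between 2.42 and 3.19 on every array. These means hide brighter single markers, such as COL1A1 at 5.09 to 5.50. Of the 17 measured markers of cells other than ductal epithelium 0 passed the test, beside 6.28% of all genes. The largest shift of any of these 5 list means between groups was 0.04 on the log2 scale. With so few markers the count is no result about them, and whether other cells add to the LPL signal was not tested.

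**Figure D1:**
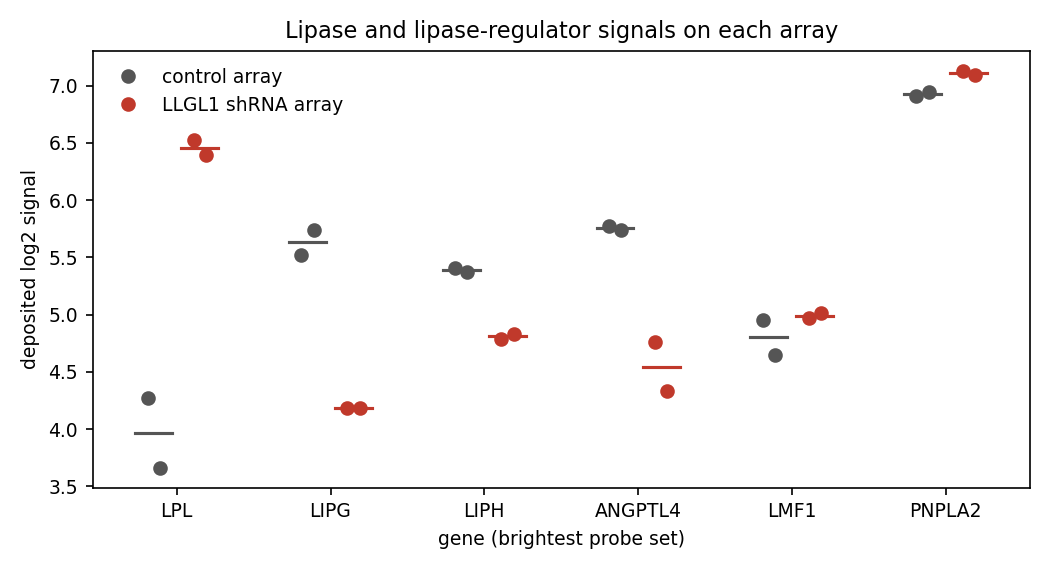
Deposited log2 signal (vertical axis) of the brightest probe set of each measured gene on the 2 control arrays (grey points) and the 2 LLGL1 shRNA arrays (red points), with short lines at the group means. LPL moves up from 3.97 to 6.46, LIPG, LIPH and ANGPTL4 move down, and signals of different genes are not comparable with each other.

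LIPG moved the opposite way to LPL. Its only probe set (219181_at) read 5.52 and 5.74 on the control arrays and 4.18 on both LLGL1 shRNA arrays. The groups did not overlap, and the LLGL1 shRNA arrays were nearly equal, with an SD of 0.00187. The log2 difference was -1.45 (SE 0.0923, 95% interval -1.71 to -1.19, limma adjusted p = 0.0246), which is 2.73-fold lower. LIPG also passed in the fit over all probe sets (adjusted p = 0.0453), and 6 genes were lower by more.

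LIPH fell by less, and both of its probe sets moved the same way. The brighter one (235871_at) read 5.41 and 5.37 on the control arrays and 4.79 and 4.83 on the LLGL1 shRNA arrays. Replicates lay 0.04 apart in each group and the groups did not overlap. The log2 difference was -0.58 (SE 0.0539, 95% interval -0.73 to -0.43, limma adjusted p = 0.0318), or 1.5-fold lower. The dimmer one (241898_at) read 5.15 and 5.08 against 4.57 and 4.74, a difference of -0.46 that did not pass in the fit over all probe sets (adjusted p = 0.0856), as the brighter one did not (0.0518).

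ANGPTL4, the lipase inhibitor, fell from 5.77 and 5.74 on the control arrays to 4.76 and 4.33 on the LLGL1 shRNA arrays in its brighter probe set (221009_s_at). Here the LLGL1 shRNA arrays were the less alike, 0.43 apart against 0.03, though both lay below the controls. The log2 difference was -1.21 (SE 0.161, 95% interval -1.66 to -0.76, limma adjusted p = 0.0413), or 2.32-fold lower, and 15 genes were lower by more. The dimmer probe set (223333_s_at) read 4.63 and 4.79 against 3.94 and 3.71, a difference of -0.88. In the fit over all probe sets neither passed (adjusted p = 0.0606 and 0.0586).

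LMF1, which is needed for the lipases to mature, was covered by 9 probe sets and 0 of them passed. The brightest (219136_s_at) read 4.95 and 4.65 on the control arrays and 4.97 and 5.01 on the LLGL1 shRNA arrays, which is a difference of 0.19 with a 95% interval of -0.15 to 0.53 (limma adjusted p = 0.408). Control arrays were 0.31 apart, more than that difference, which was 0.34 without control replicate 1 and 0.03 without control replicate 2. The 9 differences ran from -0.10 to 0.36 with a mean of 0.15, and 8 of the 9 were above 0. The choice of gene value was a close one, with mean signals of 4.89, 4.88 and 4.87 for the brightest 3.

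PNPLA2, the adipose triglyceride lipase that works inside the cell, differed little. Its brighter probe set (39854_r_at) read 6.91 and 6.94 on the control arrays and 7.13 and 7.09 on the LLGL1 shRNA arrays. The groups did not overlap, but the log2 difference of 0.18 (SE 0.0521, 95% interval 0.04 to 0.33) did not pass after adjustment (limma adjusted p = 0.122). The other probe set (212705_x_at) read 4.72 and 4.81 against 4.79 and 4.92, overlapping between groups.

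Across all 18 probe sets, 8 lay wholly higher on the LLGL1 shRNA arrays, 5 wholly lower and 5 overlapped. With 2 arrays a group such separation is common, and 48.2% of all probe sets with 1 symbol showed it. In the fit over all probe sets, 2 of the 18 passed (LIPG and the dimmer LPL probe set), beside 0.830% of all probe sets. Of the members' probe sets, 4 appear in the authors' deposited table, which holds 294 of the 54675 probe sets. Their ratios were 5.6 and 5.05 for LPL, 0.366 for LIPG and 0.432 for ANGPTL4. These come from the same 4 arrays and add no separate evidence.

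**Figure D2:**
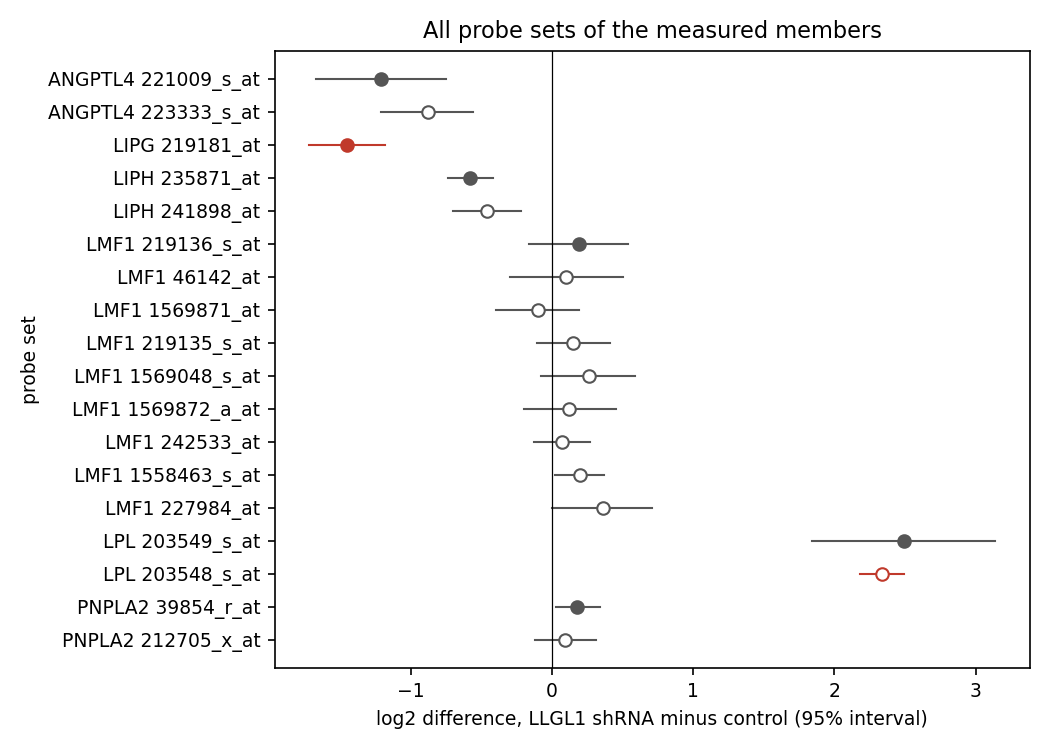
Log2 difference between LLGL1 shRNA and control arrays (horizontal axis) with its 95% interval for each of the 18 probe sets, filled where the probe set gives the gene value and red where it passed in the fit over all probe sets. Both LPL probe sets sit above 2, those of LIPG, LIPH and ANGPTL4 sit below 0, and those of LMF1 and PNPLA2 sit between -0.10 and 0.36.

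Profiles close to those of LIPG and ANGPTL4 were sought by the Euclidean distance between log2 signals over the 4 arrays, each gene centred on its own mean. The 5 nearest to LIPG were LEMD1 (distance 0.0915), IGFL1 (0.133), CLIC5 (0.141), LYST (0.16) and HAS2 (0.192). The 5 nearest to ANGPTL4 were DUSP5 (0.214), IGFBP3 (0.231), ALPP (0.252), ST3GAL4 (0.261) and STEAP4 (0.269), and LIPG and ANGPTL4 were 0.423 apart. With 4 arrays in 2 groups this distance mostly ranks genes by the size of their fall, and the log2 differences of these 10 genes were -1.55 to -0.99.

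**Figure D3:**
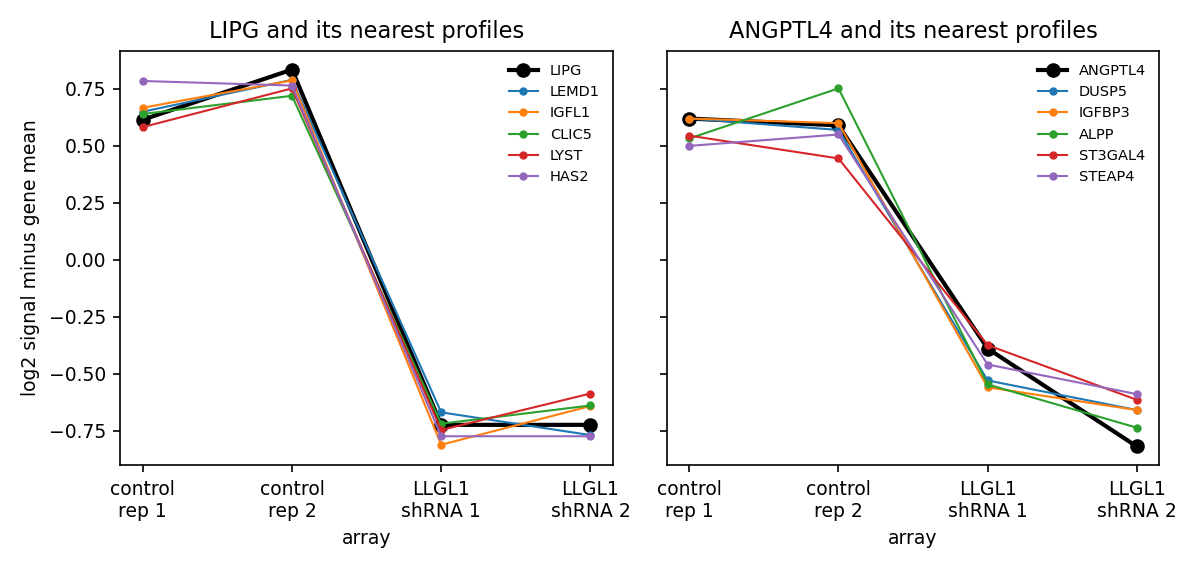
Log2 signal minus the gene's mean (vertical axis) on each of the 4 arrays for LIPG with its 5 nearest genes and for ANGPTL4 with its 5 nearest genes. Every line is above 0 on both control arrays and below 0 on both LLGL1 shRNA arrays, and ANGPTL4 is the lowest line on the second LLGL1 shRNA array of its panel.

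Genes that work with lipoprotein lipase did not pass. Of 11 measured cofactors and maturation factors 0 were called in either direction by limma, beside 6.28% of all genes. In a list this small that is no result about the list. The median log2 difference was 0.11 beside 0.01 over all genes. GPIHBP1, which carries the lipase to the capillary surface, read 3.54 and 3.22 on the control arrays and 3.59 and 3.54 on the LLGL1 shRNA arrays. The lipase activator APOC2 differed by -0.09 and stayed below 3 on every array. Among brightest probe sets the largest differences were those of PCSK5 (-0.26, adjusted p = 0.0896), a proprotein convertase, and LMF2 (0.22, adjusted p = 0.0906), the paralogue of LMF1. The other probe sets of PCSK5 differed by -0.11 and -0.10, and that of LMF2 by 0.35. PCSK6 differed by -0.05 in its brightest probe set and by -0.13, 0.11 and 0.65 in the others. The last did not pass in the fit over all probe sets (limma adjusted p = 0.103).

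Other lipases and ANGPTL genes did not pass either, with 0 of 13 measured genes called, beside 6.28% of all genes, and a median of -0.01. This too is no result about the list. The pancreatic lipase gene PNLIP read 1.73 to 1.90 over the arrays and the bile salt-dependent lipase CEL 1.46 and 1.29 on the control arrays, all under the array medians. The lysosomal lipase LIPA was brighter, at 8.93 and 8.92 on the control arrays and 8.74 and 8.72 on the LLGL1 shRNA arrays (adjusted p = 0.109). ANGPTL8, another lipase inhibitor, differed by 0.16, with arrays spread from 1.80 to 2.27. ANGPTL6 (-0.26) and the phospholipase PLA1A (0.24) differed most and did not pass.

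Inside the cell, 0 of 19 measured genes of lipolysis and lipid droplets were called, beside 6.28% of all genes, with a median of 0.04. Such a count is no result about the list. ABHD5 and G0S2, the activator and the inhibitor of PNPLA2, differed by 0.13 and -0.05 in their brightest probe sets. The other probe sets of ABHD5 differed by -0.03, -0.29 and 0.03. HILPDA, a hypoxia-induced lipid droplet protein that also inhibits PNPLA2, had the largest difference among brightest probe sets. It went from 6.24 and 6.38 to 5.96 and 5.93 without passing (log2 -0.36, limma adjusted p = 0.0698). The phospholipase DDHD2 followed (-0.27, limma adjusted p = 0.119).

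Among genes that take up lipoproteins and fatty acids, 15 were measured. Of these, 3 were called higher and 0 lower, beside 3.21% and 3.07% of all genes, with a list median of -0.07. The list was chosen with earlier results of these data known, so nothing is read from this count. SLC27A5 (0.38, limma adjusted p = 0.0613), SORL1 (-0.40, adjusted p = 0.0891) and SLC27A6 (-0.37, adjusted p = 0.077) differed without passing. The other probe sets of SORL1 differed by -0.58 and -0.03, and that of SLC27A5 by 0.23. SCARB1, the receptor for high-density lipoprotein on whose lipids LIPG acts, read 6.40 and 6.38 on the control arrays and 6.97 and 7.11 on the LLGL1 shRNA arrays (log2 0.65, SE 0.0722, limma adjusted p = 0.0353). Its other probe sets differed by 0.56, 0.23, -0.07 and -0.01. The fatty acid transporter SLC27A4 rose from 4.80 and 4.84 to 5.36 and 5.47 (log2 0.60, adjusted p = 0.0353).

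FABP5, a fatty acid binding protein, rose from 9.78 and 9.80 to 10.34 on both LLGL1 shRNA arrays (log2 0.55, SE 0.0501, limma adjusted p = 0.0318), though its many near-identical processed copies may not be told apart by a probe set. The fatty acid translocase CD36 read between 1.97 and 2.33 on all arrays, and the adipocyte form FABP4 between 1.56 and 1.79, with groups overlapping for both.

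The receptors through which fatty acids induce ANGPTL4 were read in the list of PPAR receptors and targets, in which 1 of 11 measured genes fell and 0 rose, with a median of -0.08. That is 9.09% called, near the 6.28% of all genes, and is no result about the list. The one that fell was PPARA, from 6.42 ± 0.0468 to 6.02 ± 0.0255 (SD, n = 2 each; log2 -0.40, SE 0.0564, limma adjusted p = 0.0445), and its 8 other probe sets differed by -0.68 to 0.00. PPARG (-0.35, adjusted p = 0.051) and PPARD (-0.34, adjusted p = 0.0966) differed without passing, and the other probe sets of PPARD differed by -0.04, 0.02 and 0.34. PDK4, a PPAR target like ANGPTL4, differed by 0.53 in its brightest probe set (adjusted p = 0.0667) and by 0.00 and -0.07 in the others.

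Of 4 further regulators, 1 was called higher and 0 lower, beside 3.21% and 3.07% of all genes. In a list this small the count is no result about the list. NR3C1, the glucocorticoid receptor, went from 4.38 and 4.46 to 5.10 and 5.12 (log2 0.69, SE 0.0569, limma adjusted p = 0.0305), with its other probe sets at 0.96, 0.50, 0.29 and -0.10. The hypoxia factor HIF1A differed by -0.15 and EPAS1 by 0.19, neither passing. Their partner ARNT differed by -0.55 in its brightest probe set (adjusted p = 0.0729), while its 6 other probe sets ran from -0.35 to 0.19.

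Lysophosphatidic acid, the product of LIPH, is also made by ENPP2 and sensed by LPAR receptors. Of 9 measured genes of this list 0 passed, beside 6.28% of all genes, which is no result about the list. The median was 0.01. LPAR6, the receptor that LIPH serves in human hair follicles, read 2.06 and 2.11 on the control arrays and 2.27 and 2.41 on the LLGL1 shRNA arrays (log2 0.26, limma adjusted p = 0.12), all under the array medians. Its other probe set differed by -0.11. The lipid phosphatase PLPP1 differed by -0.30 (adjusted p = 0.146), and ENPP2 by 0.05.

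**Figure D4:**
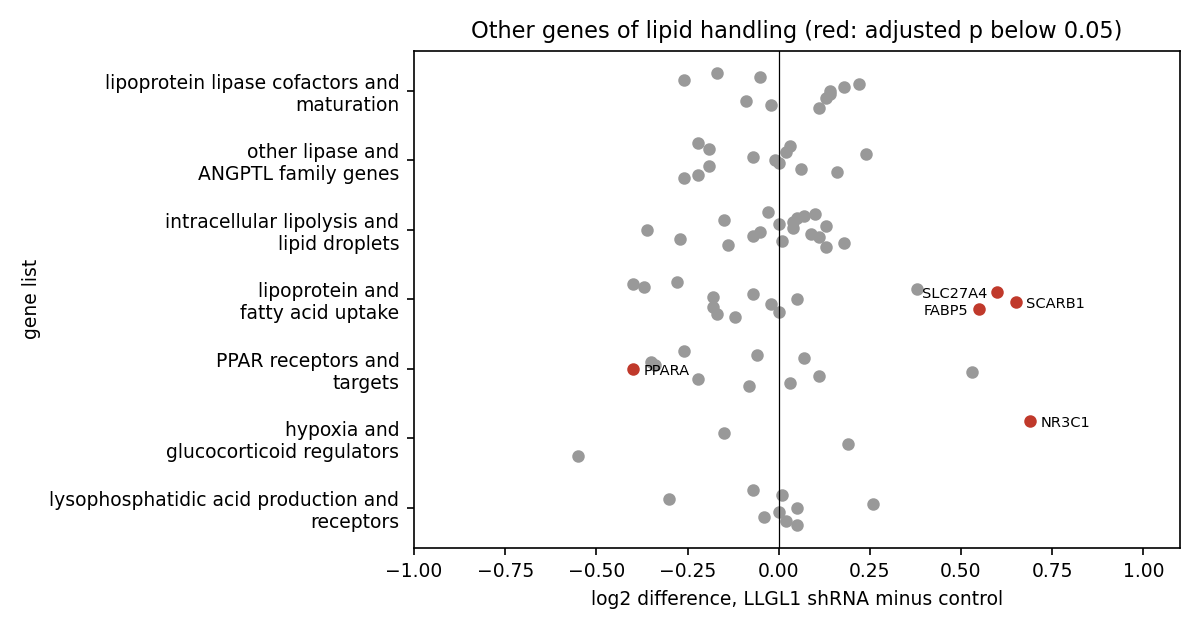
Log2 difference between LLGL1 shRNA and control arrays (horizontal axis) for the measured genes of the 7 lists of lipid handling, each point a gene's brightest probe set and red where limma's adjusted p is below 0.05. SCARB1, SLC27A4 and FABP5 in the uptake list and NR3C1 among the regulators lie to the right, PPARA lies to the left at -0.40, and the remaining points are grey.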

How the data were processed

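Signals of 54675 probe sets on 4 arrays were deposited by the authors as log2 values after RMA, with Partek 6.6, per the submitters' processing notes; cRNA was made from 100 ng of RNA, per the labels' protocols. The authors' deposited comparison table gives an unadjusted p-value, a ratio, and signed fold change and F scores, per the file headers, and its log2 ratios matched the value table within 1.68e-05.

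Of the probe sets 41097 carry 1 symbol, and 6 of them are array controls and were left out of the tests. Entrez identifiers updated 0 symbols. Genes were tested on the brightest probe set with lmFit and eBayes in limma 3.58.1 (R 4.3.3), two-sided, Benjamini-Hochberg adjusted over 19775 genes at 0.05, with 2 residual and 1.94 prior degrees of freedom (median SE 0.0754). A second fit took all 41091 probe sets. The procedure was tested on simulated data.

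Named genes are all members, LLGL1, the 2 genes per list with the largest difference (called ones first), every called list gene and the 5 nearest profiles; GPIHBP1, APOC2, PNLIP, CEL, LIPA, ANGPTL8, ABHD5, G0S2, CD36, FABP4, PPARG, PPARD, HIF1A, EPAS1 and ENPP2 were added for their roles after values were seen. PCSK6 was likewise added, for its dimmer probe set, and SLC27A5, SORL1 and SLC27A6 for differences that did not pass. Cell type markers are named from their lists, whatever their values. Members and lists were chosen with earlier results of these data known. Sequences are from RefSeq. Alternatives were scaling, moderation, a filter on dim probe sets, the mean of probe sets, the replicate block, leaving out each array and a 2-fold threshold.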

Additional observations from a re-analysis of the deposited data

How the results depend on the processing

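The directions of all 6 genes were the same under each alternative below other than crossed numbers, for which only calls were counted, and LPL, LIPG, LIPH and ANGPTL4 passed under median centring, cyclic loess, trend and robust moderation, without dim probe sets (mean log2 under 3.37) and with the mean of a gene's probe sets, where their log2 differences were 2.41 to 2.50, -1.45 to -1.44, -0.59 to -0.52 and -1.22 to -1.05. PNPLA2 passed with trend and robust moderation (0.18, adjusted p = 0.0466). The genes called went from 1242 to 1881 with median centring, 2096 with cyclic loess, 3935 with trend and robust moderation, 3596 without dim probe sets and 127 at 2-fold or more. In the same order the genes called in the 7 lists went from 5 to 9, 9, 19, 16 and 0. These list counts moved with the counts over all genes, and nothing is read from them. Probe sets called one by one went from 341 to 2673, 2443 and 5946 under the first 3. Same-numbered replicates deviated with a correlation of -0.13, so the numbers are not taken to pair the arrays. With the replicate block, which leaves 1 residual degree of freedom, 0 genes, probe sets, members or list genes were called (4284 genes at an unadjusted p below 0.05, lowest adjusted p 0.0945), with unchanged differences of 2.49 for LPL, -1.45 for LIPG, -0.58 for LIPH and -1.21 for ANGPTL4 (adjusted p = 0.151 for each). With crossed numbers, a pairing added after the data were seen, 0 were called as well. Without any 1 array 0 genes, probe sets, members or list genes were called (3496 to 4546 genes at an unadjusted p below 0.05), in fits where a group of 1 array borrows the other group's spread. The differences were then 2.18 to 2.79 for LPL, -1.56 to -1.34 for LIPG, -0.60 to -0.56 for LIPH and -1.43 to -1.0 for ANGPTL4, with adjusted p of 0.187 to 0.268. PNPLA2 ran from 0.17 to 0.20, and LMF1 moved from 0.19 to 0.34 without control replicate 1 and to 0.03 without control replicate 2. Signals under the array medians, such as LPL's dimmer probe set on control arrays, limit how far their folds can be read.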
